A study of Mus musculus with 6 samples.

Results

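The 43 autophagy machinery genes, chosen by symbol from the 25006 genes of a count table of mouse corneal epithelium, were described step by step across 6 RNA sequencing libraries. The symbols were matched to the table's Ensembl identifiers, and all 43 were found. The corneal epithelium is the stratified outer layer of the cornea, and total RNA of isolated sheets was sequenced on an Illumina HiSeq instrument. There were 3 libraries labelled EphA2 null (EphA2-/-) and 3 labelled wild type. EphA2 is a receptor tyrosine kinase for ephrin-A ligands, and the study addressed its part in autophagy and cilium formation in this tissue. No Cre, promoter, strain, age or treatment is named in the labels, and they do not say whether the libraries come from separate mice, so p-values here reflect only the scatter among these libraries, which may be technical.

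The sample titles carry a number, and the numbers fall in a higher range (the libraries labelled EphA2 null 2 and 3, which share a number, and wild type 3) and a lower range (the library labelled EphA2 null 1, and wild type 1 and 2, which share a number). The labels do not say what the number stands for. Earlier analysis of these data had shown that the libraries separate by it, so each gene is given by genotype and by title number range. Throughout, 3 values of one genotype are in the order of libraries 1, 2 and 3. Values of the higher range are in the order EphA2 null 2, EphA2 null 3 and wild type 3, and values of the lower range in the order EphA2 null 1, wild type 1 and wild type 2.

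Autophagy encloses cytoplasm in a double membrane, the autophagosome, and delivers it to the lysosome. The Ulk kinase complex starts the process, a lipid kinase complex around Becn1 and Pik3c3 marks the membrane, Atg9a vesicles and the lipid-transfer proteins Atg2a and Atg2b supply membrane, and ubiquitin-like conjugation attaches Atg8-family proteins to it. Receptors link cargo to the Atg8 proteins, and SNARE proteins fuse the autophagosome with the lysosome. Much of this machinery is regulated on the protein, by phosphorylation, lipidation and turnover, which RNA counts do not measure. In bulk RNA, fewer cells of a type and less RNA per cell cannot be told apart.

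Total counts ranged from 15308013 to 27586942 per library. The targeted gene was checked first: Epha2 was at 284, 652 and 578 CPM (counts scaled to a common library size with TMM factors) in libraries labelled EphA2 null, against 298, 253 and 562 CPM in wild type. It was not lower under the null label, so the direction of every genotype difference rests on the label alone. Between the title number ranges Epha2 did not overlap and was higher in the higher range by 1.05 ± 0.11 (log2, SE, adjusted p = 0.0019, edgeR). A count over the whole gene cannot show whether 1 exon was removed. The corneal keratin gene Krt12 was abundant in all 6 libraries, at 13267, 16014 and 15611 CPM in libraries labelled EphA2 null, against 13816, 13056 and 15710.3 CPM in wild type. Of 8 markers of stromal keratocytes, 6 averaged under 1 CPM, and of these Kera and Lum were at 0 in all libraries. The other 2, Vim and the abundant Aldh1a1, were both lower in the higher title number range. Markers of other cells differed between the ranges too. Called lower in the higher range were 9 of 11 tested leukocyte genes and 4 of 7 conjunctival genes, against 21.6% of all tested genes. None of either list was called higher. Itgam and Cd68, the most abundant genes of the leukocyte list, were not called, and 8 of the 13 leukocyte genes averaged under 1 CPM. Itgam averaged 294 CPM against 0.916 CPM for Ptprc, so the Itgam count cannot be taken as a leukocyte level here. Of 8 corneal epithelial markers 3, Aldh3a1, Tkt and Cdh1, were called higher in the higher range and none lower, against 22.9% of all tested genes called higher. Krt5, Krt12, Trp63, Pax6 and Krt14 were not called in edgeR, though DESeq2 also called Krt5 and Krt12 higher. Their log2 differences between the ranges ran from 0.27 for Krt5 to -0.32 for Krt14, with -0.01 for Pax6. Also called higher were 1 vessel and 1 nerve marker. All 43 members passed the filter on low counts in every comparison, and the lowest count of any member in any library was 84.

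Promoter sequence is shown for 6 members. Ulk1, Atg2a and Optn had the smallest p-values between the genotypes once the title number range was in the model. Between the ranges Atg2a had the largest rise of all members, Vamp8 was the called fall among the fusion genes and Atg5 the largest called fall among the conjugation enzymes, and the windows of Atg3 and Atg5 hold the E-box CACGTG. Each is the 250 bases before the start of the gene as RefSeq gives it in GRCm38.p6, 5′ to 3′ on the gene's strand. Capitals mark 3 motifs on either strand: CACGTG, the core of the sites of TFEB and TFE3, which switch on autophagy and lysosome genes, GGGCGG (or CCGCCC), the GC box of Sp1, and CCAAT (or ATTGG), the box of NF-Y.
Ulk1: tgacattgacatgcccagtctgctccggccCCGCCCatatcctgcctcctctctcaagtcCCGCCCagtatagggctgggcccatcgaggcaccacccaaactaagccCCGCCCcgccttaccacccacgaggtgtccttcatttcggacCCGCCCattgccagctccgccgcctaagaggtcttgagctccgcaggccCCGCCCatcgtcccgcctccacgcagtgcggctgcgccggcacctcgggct
Atg2a: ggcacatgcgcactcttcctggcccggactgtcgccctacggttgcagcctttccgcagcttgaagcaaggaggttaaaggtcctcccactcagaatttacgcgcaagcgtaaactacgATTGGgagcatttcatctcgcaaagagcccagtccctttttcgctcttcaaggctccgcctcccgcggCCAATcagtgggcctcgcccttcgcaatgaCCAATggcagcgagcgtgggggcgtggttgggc
Vamp8: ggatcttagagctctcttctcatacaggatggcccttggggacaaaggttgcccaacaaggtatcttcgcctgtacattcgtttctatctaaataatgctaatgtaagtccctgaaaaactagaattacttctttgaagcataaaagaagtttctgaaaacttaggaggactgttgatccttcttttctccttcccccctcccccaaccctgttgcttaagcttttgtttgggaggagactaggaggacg
Optn: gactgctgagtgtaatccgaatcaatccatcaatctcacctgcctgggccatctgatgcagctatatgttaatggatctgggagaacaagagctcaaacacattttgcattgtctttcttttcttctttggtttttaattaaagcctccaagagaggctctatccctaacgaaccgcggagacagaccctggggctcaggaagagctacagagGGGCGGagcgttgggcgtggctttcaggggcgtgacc
Atg3: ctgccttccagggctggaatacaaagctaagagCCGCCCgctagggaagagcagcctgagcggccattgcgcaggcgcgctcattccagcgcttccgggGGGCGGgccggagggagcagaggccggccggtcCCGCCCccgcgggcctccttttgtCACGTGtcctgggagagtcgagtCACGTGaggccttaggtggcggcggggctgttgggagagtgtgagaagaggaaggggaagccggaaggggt
Atg5: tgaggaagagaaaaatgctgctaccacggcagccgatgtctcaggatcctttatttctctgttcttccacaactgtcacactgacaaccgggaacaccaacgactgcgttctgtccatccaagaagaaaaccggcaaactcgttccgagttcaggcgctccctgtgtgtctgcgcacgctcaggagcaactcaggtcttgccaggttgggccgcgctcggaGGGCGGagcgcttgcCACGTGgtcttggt
The windows lie at chr5:110810082-110810331 (minus strand) for Ulk1, chr19:6241418-6241667 (plus strand) for Atg2a, chr6:72390668-72390917 (minus strand) for Vamp8, chr2:5064118-5064367 (minus strand) for Optn, chr16:45158579-45158828 (plus strand) for Atg3 and chr10:44268089-44268338 (plus strand) for Atg5. The Ulk1 window holds 5 GC boxes, the Atg2a window 3 CCAAT boxes, and the Vamp8 window none of the 3 motifs. The 2 E-boxes of the Atg3 window include 1 in the longer palindrome TCACGTGA. Windows were found for 36 of the 43 members, 41 windows in all because some genes have more than 1 start. CACGTG stood in 4 of the 41 member windows, or 9.76%, against 6.02% of all 32851 windows, and TCACGTGA in 1, or 2.44%, against 0.785%. GGGCGG stood in 21, or 51.2%, against 32.7%, and CCAAT in 12, or 29.3%, against 33.8%. A motif match is a description of the letters in the window only.

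Levels between genes were compared as CPM per kb of annotated exon, averaged over the 6 libraries. Gabarap, an Atg8-family gene, stood highest at 126 CPM per kb. Next came Vamp8, the lysosomal SNARE gene, at 81.7 and Sqstm1, which encodes the cargo receptor p62, at 76.2 CPM per kb. The libraries of Vamp8 and Sqstm1 overlapped, so their order is within the spread, while every library of Gabarap lay above every library of both. Tecpr1, a tethering factor for fusion, stood lowest at 1.14 CPM per kb. The 8 highest members also included the Atg8-family gene Map1lc3a, the receptors Tax1bp1 and Nbr1, the conjugation gene Atg5 and the SNARE gene Snap29. Within the Atg8 family Map1lc3a was at 41.4, Map1lc3b at 12.5, Gabarapl1 at 8.55 and Gabarapl2 at 6.75 CPM per kb. The last 2 overlapped across the libraries. Gabarap held 64.4% of the summed level of the family. It held 65.1 ± 2.06% in libraries labelled EphA2 null, against 63.7 ± 0.910% in wild type (SD, n = 3 each), and the groups overlapped. Between genes, the level depends on the length used: Map1lc3b made up 23.2% of the LC3 pair by all annotated exons and 34.1% by the longest transcript. By the longest transcript Sqstm1 was at 95.7, Tax1bp1 at 94.6 and Vamp8 at 91.0 CPM per kb, and Atg3 (23.7) passed Snap29 (23.2). Across the 43 members the 2 scales had a Spearman's rho of 0.892.

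**Figure D1:**
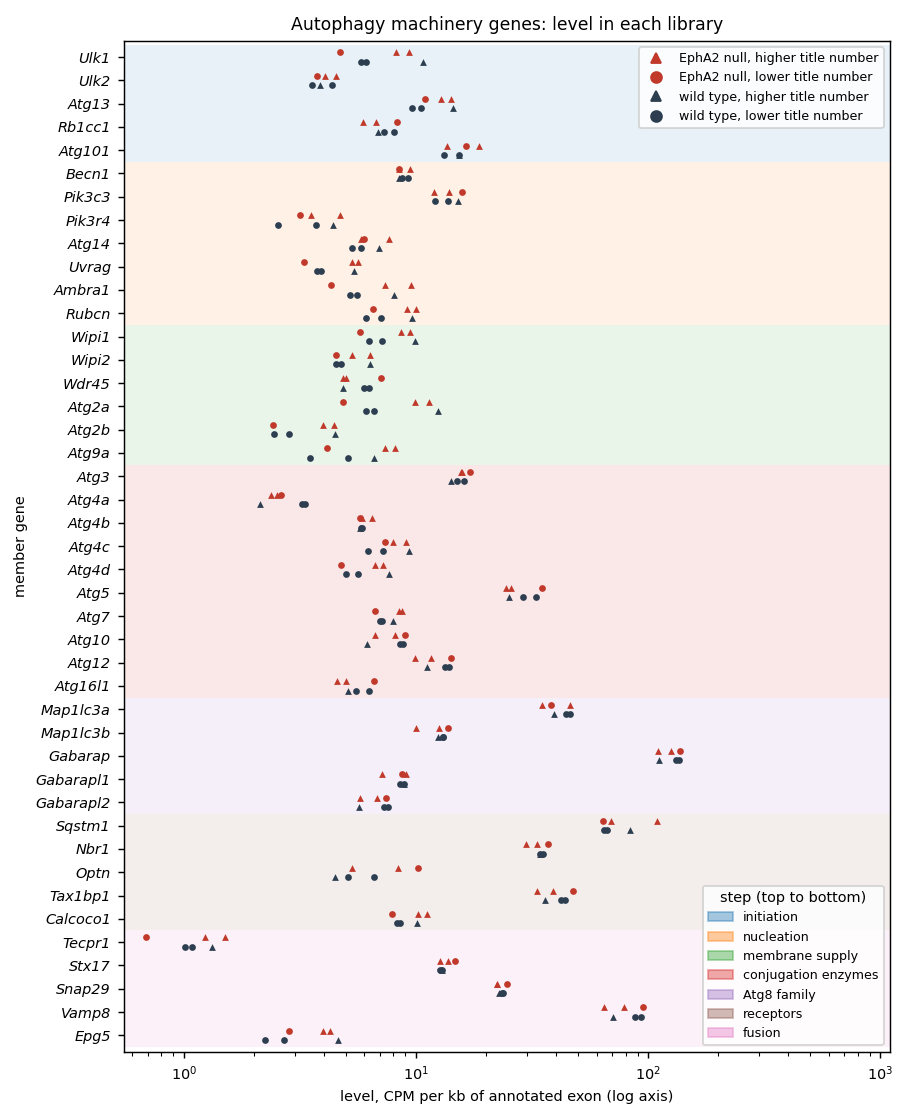
Level of each member in each library, in CPM per kb of annotated exon on a log axis, with genotype by colour and title number range by symbol. Members run in the order of the steps. Gabarap is at the top of the scale, its lowest library (110) just above the highest of Sqstm1 (109). Tecpr1 is at the foot, its highest library (1.51) below the lowest of Atg4a (2.13).

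Between the genotypes none of the 43 members was called. A call is an adjusted p under 0.05 in edgeR's quasi-likelihood test with Benjamini-Hochberg adjustment over all 12847 tested genes, of which 1 was called, or 0.00778%. DESeq2 called 0 members, against 0.0272% of all genes it tested, and limma voom 0, against 0.00778%. Among the members 0 had an unadjusted p under 0.05, against 1.18% of all tested genes. The log2 fold changes, libraries labelled EphA2 null over wild type, lay between -0.21 for Atg4a and 0.56 for Optn. Their median was 0.03, against 0.01 over all tested genes. The 95% interval lay inside 2-fold in both directions for 41 members, against 78.8% of all tested genes. Atg9a and Optn were the exceptions, with upper ends of 1.11 and 1.18 on the log2 scale. No member had every library labelled EphA2 null above, or every one below, every wild type library, against 3.73% of all tested genes. Within the title number ranges, the difference between the genotypes had the same sign in both ranges for 17 members, 9 above 0 and 8 below, against 48.9% of all tested genes. It had opposite signs for the other 26. Each of these differences sets 1 library against 2 that share a title number.

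When the model also held the title number range, 0 members were called again, and 1 of 13147 genes, or 0.00761%, was called. The median standard error of the members was 0.10 with the term, against 0.18 without it. The interval lay inside 2-fold for 42 members, all but Optn, against 85.2% of all tested genes. Unadjusted p-values under 0.05 belonged to 3 members, Optn, Ulk1 and Atg2a, against 3.78% of all tested genes.

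**Figure D2:**
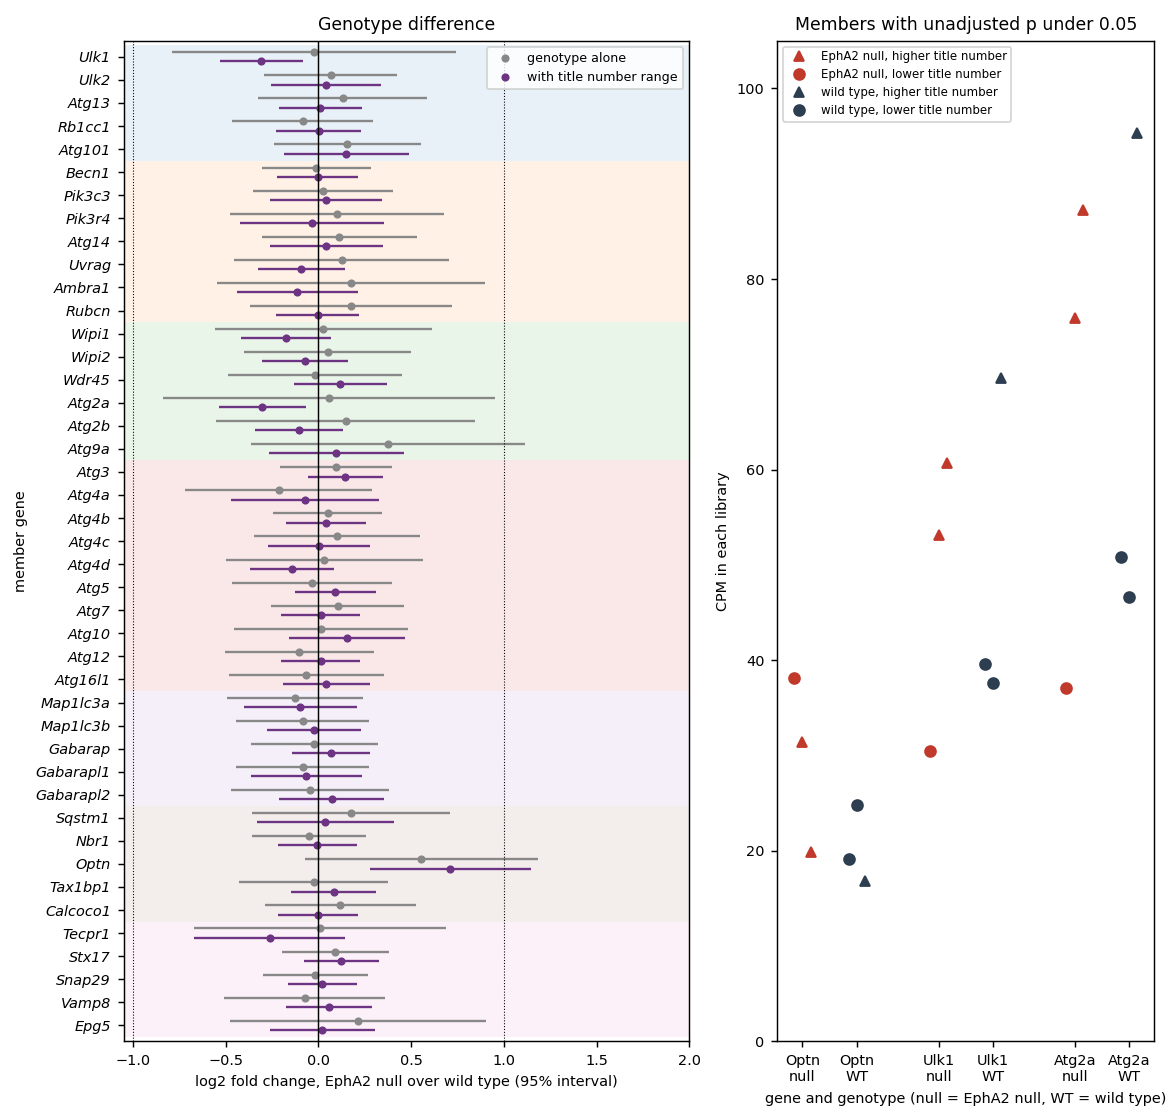
Left, log2 fold change of each member, libraries labelled EphA2 null over wild type, with its 95% interval, for genotype alone and for the model that also holds the title number range (dotted lines mark 2-fold). Right, CPM in each library of the 3 members with an unadjusted p under 0.05 in the second model: the groups overlap for all 3, with adjusted p of at least 0.951 in edgeR.

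Between the title number ranges, 23 of the 43 members were called, 14 higher and 9 lower in the higher range. Over all 13147 tested genes 44.6% were called, 22.9% higher and 21.6% lower. DESeq2 called 24 members, with Sqstm1 and Optn added and Atg10 left out, against 41.8% of all genes it tested, and limma voom 23, against 44%. The split depended on the scaling. With DESeq2's size factors in edgeR 15 members were called higher and 6 lower, and by library size alone 13 and 12. Over all genes library size alone gave 2460 higher and 3674 lower, against 3014 and 2845 with TMM, and no called member changed its direction. The higher and lower ranges did not overlap for 17 members that were higher and 13 that were lower, against 58.3% of all tested genes, 29.8% higher and 28.5% lower. The difference had the same sign within both genotypes for 35 of the 43 members, against 83.1% of all tested genes. The count rested strongly on single libraries. When the library labelled EphA2 null 1 was left out, so that wild type 1 and 2 alone made up the lower range, 4 members were called, Ulk1, Atg2a, Atg2b and Epg5, all higher, against 6.28% of all tested genes. Without wild type 2 there were 12 called members and without wild type 3 there were 13, against 27.2% and 26.9% of all tested genes. In each of these 3 fits the 23 members kept their direction. Marker lists moved with the ranges in both directions. The 8 corneal epithelial markers summed to 75413 to 82577 CPM in the higher range, against 58131 to 65979 CPM in the lower range. Most of this was Krt5, Aldh3a1 and Krt12, while Pax6 averaged 893 CPM in the higher and 884 CPM in the lower range. The whole leukocyte list overlapped between the ranges, at 302 to 350 CPM in the higher and 317 to 361 CPM in the lower range, most of it Itgam. The leukocyte list without its most abundant gene Itgam summed to 25.6 to 32.9 CPM in the higher range, against 51.1 to 66.6 CPM in the lower range, and its defining gene Ptprc was at 0.246, 0.261 and 0.270 CPM in the higher range and 1.93, 1.40 and 1.40 CPM in the lower range. Muc5ac, a mucin gene of conjunctival goblet cells, was at 2.21, 1.68 and 0.675 CPM in the higher range and 58.7, 38.5 and 5.24 CPM in the lower range. The 7 conjunctival markers summed to 3294 to 6006 CPM in the higher range and 4903 to 6314 CPM in the lower range. No leukocyte or conjunctival marker was at 0 in all libraries. The keratocyte list summed to 73.9 to 122 CPM in the higher range and 249 to 254 CPM in the lower range, nearly all of it Aldh1a1. The vessel list, in which Pecam1 was called higher, summed to 1.27 to 1.87 CPM in the higher and 0.779 to 0.868 CPM in the lower range. The nerve list, in which Prx was called higher, summed to 196 to 315 CPM in the higher and 128 to 207 CPM in the lower range. The part of these markers in the range differences was not tested.

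**Figure D3:**
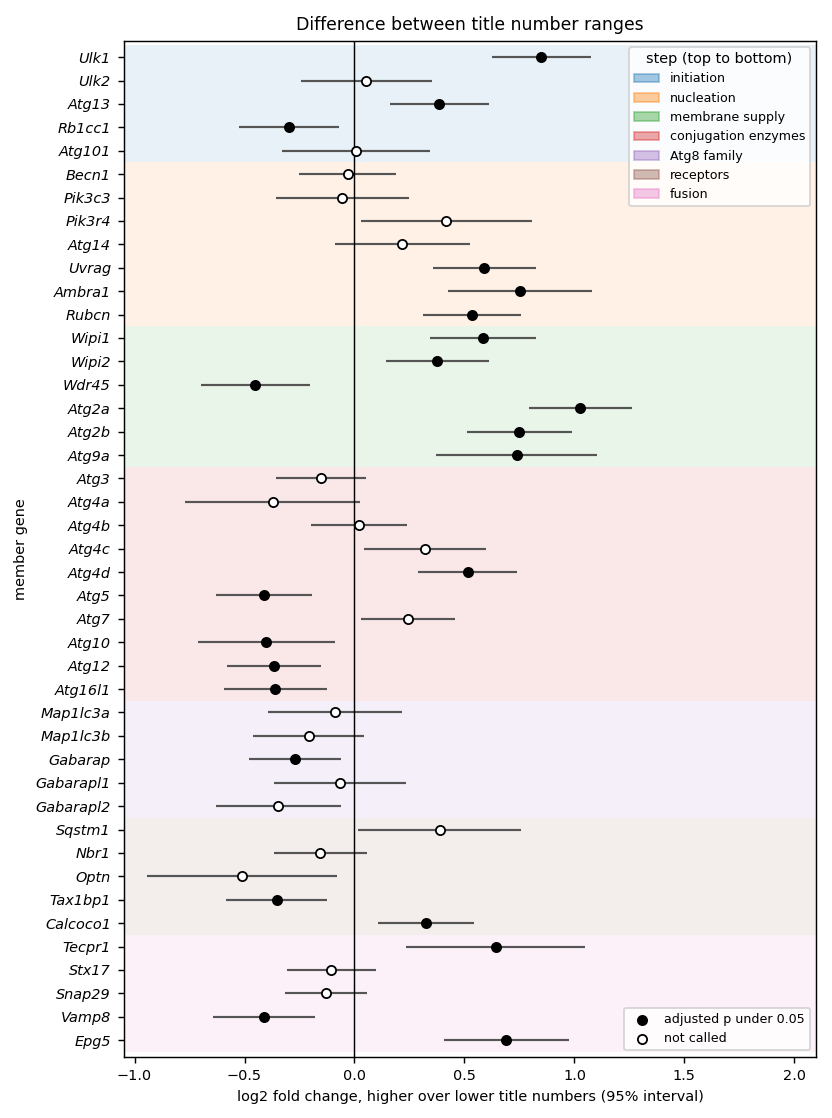
Log2 fold change of each member, higher over lower title numbers with genotype as a term, with its 95% interval. Filled points mark the 23 members with an adjusted p under 0.05 in edgeR. Of the 6 membrane supply genes, 5 lie above 0 and Wdr45 below.

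In the initiation complex, no member was called between the genotypes. Between the ranges Ulk1, Atg13 and Rb1cc1 were called, 3 of 5, against 44.6% of all tested genes. Ulk1 encodes the kinase that starts autophagy under the control of mTORC1 and AMPK. Ulk1 (ENSMUSG00000029512, chromosome 5, 110784488 to 110810097 in GRCm38) was at 30.5, 53.1 and 60.7 CPM in libraries labelled EphA2 null, against 39.6, 37.6 and 69.6 CPM in wild type. The groups overlapped, but within each title number range, 1 library against 2, the label EphA2 null lay below wild type on average. Over all tested genes 48.9% had the same sign in both ranges. The difference was -0.34 in the lower and -0.29 in the higher range on the log2 scale. The log2 fold change was -0.02 ± 0.33 for genotype alone and -0.31 ± 0.10 with the range as a term (SE, unadjusted p = 0.0127, adjusted p = 0.9999, edgeR). Between the ranges the Ulk1 libraries were at 53.1, 60.7 and 69.6 CPM in the higher and 30.5, 39.6 and 37.6 CPM in the lower range, with no overlap, and Ulk1 rose by 0.85 ± 0.10 (log2, SE, adjusted p = 0.00200, edgeR). Ulk2, its paralog, was at 24.3, 27.1 and 23.0 CPM in the higher and 22.4, 26.1 and 21.4 CPM in the lower range, and the ranges overlapped. Ulk1 made up 69.3 ± 3.74% of the length-scaled level of the pair in the higher and 58.6 ± 3.11% in the lower range (SD, n = 3 each).

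Atg13, the regulatory subunit that binds Ulk1, was at 61.8, 56.0 and 62.9 CPM in the higher and 47.5, 46.0 and 42.2 CPM in the lower range. It rose by 0.39 ± 0.10 (log2, SE, adjusted p = 0.0147, edgeR), a call lost when any one of EphA2 null 1, wild type 2 and wild type 3 was left out. Atg13 was at 47.5, 61.8 and 56.0 CPM in libraries labelled EphA2 null, against 46.0, 42.2 and 62.9 CPM in wild type, a genotype difference of 0.13 ± 0.19 (unadjusted p = 0.521, edgeR) with overlapping groups. Rb1cc1, the scaffold also called FIP200, moved the other way. It was at 98.7, 86.7 and 101 CPM in the higher and 121, 107 and 118 CPM in the lower range, a range difference of -0.30 ± 0.10 (SE; adjusted p = 0.0398, edgeR). That call was lost in 5 of the 6 fits that left out 1 library, with an adjusted p of up to 0.407 and a difference of -0.19 when EphA2 null 1 was left out, and with DESeq2's size factors (adjusted p = 0.0505). Atg101, which stabilises Atg13, was at 26.4, 29.9 and 21.6 CPM in libraries labelled EphA2 null, against 24.4, 21.1 and 24.4 CPM in wild type. Its genotype difference of 0.16 ± 0.17 (unadjusted p = 0.383, edgeR) was the largest of the complex, and the groups overlapped.

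In the nucleation complex, no member was called between the genotypes. Between the ranges 3 of 7 were called, all higher, against 44.6% of all tested genes called and 22.9% called higher. The lipid kinase core was not called: Becn1 had a range difference of -0.03 ± 0.10, the kinase gene Pik3c3 one of -0.06 ± 0.13, and Pik3r4, the regulatory kinase subunit, one of 0.42 ± 0.17 (adjusted p = 0.0761, edgeR). Pik3r4 was called without wild type 1 and without EphA2 null 2 (adjusted p = 0.0385 and 0.0241, edgeR). Becn1 was at 60.0, 66.5 and 59.5 CPM in libraries labelled EphA2 null, against 65.5, 61.8 and 60.0 CPM in wild type. Of its 50-base stretches 36.8% lie in Cntd1 or other genes as well, so part of its count could belong to these. Pik3c3 went opposite ways within the ranges, with libraries labelled EphA2 null above wild type by 0.30 on the log2 scale in the lower range and at -0.24 in the higher one. Rubcn, an inhibitor of the Uvrag form of the complex, was at 48.6, 68.7 and 74.8 CPM in libraries labelled EphA2 null, against 52.6, 45.4 and 72.1 CPM in wild type. The groups overlapped, with wild type 3 among the high values. Its genotype difference was 0.18 ± 0.23 (unadjusted p = 0.472, edgeR) for genotype alone and 0.00 ± 0.10 with the range as a term. Atg14, which directs the complex to the forming autophagosome, was at 25.9, 33.2 and 25.0 CPM in libraries labelled EphA2 null, against 22.9, 25.1 and 29.8 CPM in wild type, a difference of 0.11 ± 0.18 (unadjusted p = 0.544, edgeR). Between the ranges it had 0.22 ± 0.13.

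The called members were Ambra1, Uvrag and Rubcn. Ambra1, a positive regulator of Becn1 and of Ulk1, was at 45.0, 58.5 and 49.3 CPM in the higher and 26.4, 34.1 and 31.7 CPM in the lower range, with no overlap. It rose by 0.75 ± 0.14 (log2, SE, adjusted p = 0.00508, edgeR), a call lost once the library labelled EphA2 null 1 was left out (0.55, adjusted p = 0.0884). Uvrag, which takes the place of Atg14 in the endosomal form, rose by 0.59 ± 0.10, and Rubcn by 0.54 ± 0.10 (adjusted p = 0.00397 and 0.00449, edgeR). Both calls were lost without EphA2 null 1 as well (0.46 and 0.52, adjusted p = 0.0732 and 0.06475, edgeR). Of the 50-base stretches in Uvrag exons 17.5% also occur in other genes, so part of its count could belong elsewhere.

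All 6 membrane supply genes were called between the ranges, 5 higher and 1 lower, and 0 between the genotypes. Over all tested genes 44.6% were called between the ranges, 22.9% higher and 21.6% lower. Atg2a encodes a bridge protein that carries lipid from the endoplasmic reticulum into the growing membrane. Atg2a (ENSMUSG00000024773, chromosome 19, 6241668 to 6262335 in GRCm38) was at 37.1, 75.9 and 87.3 CPM in libraries labelled EphA2 null, against 50.9, 46.6 and 95.4 CPM in wild type. Within each title number range, 1 library against 2, the label EphA2 null was lower on average. The difference was -0.39 in the lower and -0.23 in the higher range on the log2 scale. With the range as a term the genotype difference was -0.30 ± 0.10 (SE, unadjusted p = 0.0174, adjusted p = 0.9999, edgeR), against 0.06 ± 0.38 without it. Between the ranges Atg2a was at 75.9, 87.3 and 95.4 CPM in the higher and 37.1, 50.9 and 46.6 CPM in the lower range. Every library of the higher range lay above every library of the lower range, and the rise of 1.03 ± 0.10 was the largest among the 43 members (log2, SE, adjusted p = 0.00190, edgeR). It lay between 0.93 and 1.12 when single libraries were left out, and was called each time.

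Atg2b, the paralog, was at 53.3, 59.5 and 60.0 CPM in the higher and 32.5, 38.1 and 33.1 CPM in the lower range and rose by 0.75 ± 0.10. It was at 32.5, 53.3 and 59.5 CPM in libraries labelled EphA2 null, against 38.1, 33.1 and 60.0 CPM in wild type, a genotype difference of 0.15 ± 0.30 (unadjusted p = 0.633, edgeR) with overlapping groups. Atg9a, the scramblase of the seed vesicles, was at 23.8, 42.5 and 46.9 CPM in libraries labelled EphA2 null, against 29.4, 20.2 and 37.9 CPM in wild type. The genotype difference was 0.37 ± 0.31 for genotype alone (unadjusted p = 0.271, edgeR), second in size to Optn among the members, and 0.10 ± 0.16 with the range as a term. It stood at -0.03 within the lower and 0.24 within the higher range. Between the ranges Atg9a rose by 0.74 ± 0.16, and 30.5% of its 50-base stretches also occur in other annotated genes, Gm29253 on the same strand among them. The phosphoinositide readers Wipi1 and Wipi2, which recruit the conjugation machinery, rose by 0.58 ± 0.11 and 0.38 ± 0.10. The call of Wipi2 was lost when any one of EphA2 null 1, wild type 2 and wild type 3 was left out. Those of Wipi1 and Atg9a were lost without EphA2 null 1 (0.53 and 0.57, adjusted p = 0.0699 and 0.1198, edgeR). Wdr45, the fourth WIPI-type gene and the only called fall of the group, was at 16.6, 16.1 and 16.1 CPM in the higher and 23.3, 20.8 and 19.7 CPM in the lower range. A share of 16.9% of its 50-base stretches lies in the overlapping gene Gm45208 too. The ranges did not overlap, with a fall of 0.45 ± 0.11 on the log2 scale (SE, adjusted p = 0.0121, edgeR) that was not called once the library labelled EphA2 null 1 was left out (-0.36, adjusted p = 0.191).

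**Figure D4:**
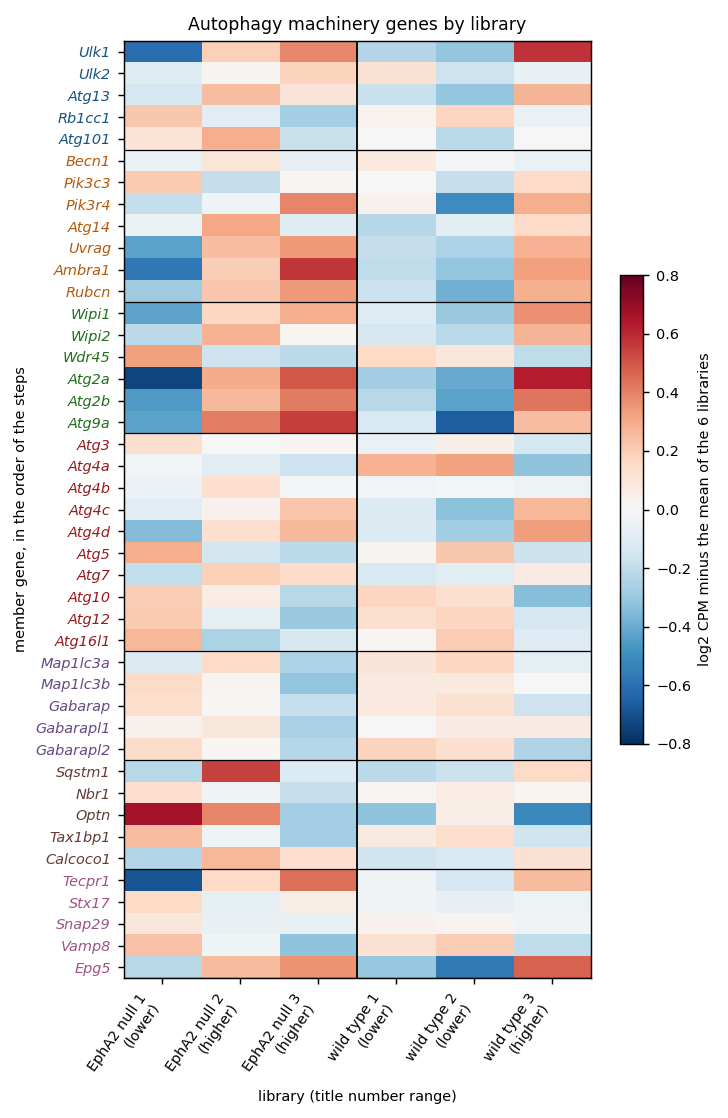
Log2 CPM of each member in each library minus the mean of the 6 libraries, members in the order of the steps. Ulk1, Atg2a, Atg2b and Epg5 are above their means in libraries labelled EphA2 null 2 and 3 and in wild type 3, and Optn is highest in libraries labelled EphA2 null 1 and 2.

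Among the 10 conjugation enzymes, 0 were called between the genotypes. Between the ranges 1 was called higher and 4 lower, against 22.9% and 21.6% of all tested genes. The 4 that fell all belong to the chain that joins Atg12 to Atg5 and docks the product on Atg16l1. Atg5 was at 60.2, 57.6 and 59.0 CPM in the higher and 81.7, 67.7 and 77.3 CPM in the lower range, with no overlap, and fell by 0.41 ± 0.10 (log2, SE, adjusted p = 0.0106, edgeR). Atg12, the ubiquitin-like protein, fell by 0.37 ± 0.09, its conjugating enzyme Atg10 by 0.40 ± 0.14 and the docking subunit Atg16l1 by 0.36 ± 0.10. Their adjusted p-values were 0.0152, 0.0414 and 0.0225 in edgeR, and none of the 4 was called once the library labelled EphA2 null 1 was left out. The call of Atg10 was lost in 5 of the 6 fits that left out 1 library, with an adjusted p of up to 0.281, and in DESeq2 (adjusted p = 0.0790). That of Atg12 was also lost without wild type 2 and without wild type 3, and that of Atg16l1 without wild type 2 and without EphA2 null 2. Atg7, the activating enzyme shared by both conjugation chains, was at 60.4, 58.6 and 55.3 CPM in the higher and 46.3, 48.7 and 49.8 CPM in the lower range. Its values did not overlap, and the difference of 0.24 ± 0.09 had an adjusted p of 0.0649 in edgeR. Atg3, which transfers Atg8 proteins to lipid, had a range difference of -0.15 ± 0.09.

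Atg4 proteases trim Atg8 proteins before conjugation and release them from the membrane later. Atg4d was at 48.2, 52.6 and 55.4 CPM in the higher and 34.4, 40.7 and 36.2 CPM in the lower range and rose by 0.51 ± 0.10 (log2, SE, adjusted p = 0.00519, edgeR), a call lost once the library labelled EphA2 null 1 was left out (0.49, adjusted p = 0.0720). Of the 50-base stretches of Atg4d 14.6% also occur in Kri1, on the opposite strand. Atg4c had a range difference of 0.32 ± 0.12 and Atg4a one of -0.37 ± 0.17, and neither was called. Atg4b, the most active of the family on LC3, was at 47.4, 53.6 and 48.5 CPM in libraries labelled EphA2 null, against 48.1, 48.5 and 47.6 CPM in wild type. Atg4a had the most negative genotype difference of the 43 members. It was at 6.97, 6.69 and 6.31 CPM in libraries labelled EphA2 null, against 8.58, 8.85 and 5.67 CPM in wild type. The groups overlapped because wild type 3 was the lowest library, and the log2 fold change was -0.21 ± 0.22 (unadjusted p = 0.351, edgeR). Of its 50-base stretches 51.2% occur in other genes too, mostly in the pseudogene Atg4a-ps, so its counts are uncertain. Atg3 was at 53.9, 49.4 and 49.8 CPM in libraries labelled EphA2 null, against 47.4, 50.9 and 44.7 CPM in wild type, and these overlapped. Its difference was 0.10 ± 0.13 (unadjusted p = 0.472, edgeR) alone and 0.15 ± 0.09 with the range as a term, with 0.13 within the lower and 0.15 within the higher range.

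The Atg8 family, the ubiquitin-like proteins that coat the membrane and from which autophagosomes are counted, had 0 calls between the genotypes. All 5 genotype differences were below 0, between -0.13 for Map1lc3a and -0.02 for Gabarap. The sign of all 5 was the same under each scaling tried, though these rescale the same counts. Within the title number ranges, 1 library against 2, only Gabarapl1 was below 0 in both, at -0.001 in the lower and -0.15 in the higher range. Gabarap was above 0 in both, at 0.04 and 0.08, and the others changed sign. With the range as a term Gabarap and Gabarapl2 were above 0. Map1lc3a was at 45.2, 54.2 and 41.0 CPM in libraries labelled EphA2 null, against 52.3, 54.6 and 46.4 CPM in wild type, with EphA2 null 3 the lowest and EphA2 null 2 near the top, a log2 fold change of -0.13 ± 0.16 (unadjusted p = 0.445, edgeR). Map1lc3b, whose protein is the usual marker of autophagosomes, was at 104, 94.7 and 75.0 CPM in libraries labelled EphA2 null, against 98.2, 98.5 and 93.3 CPM in wild type. The wild type libraries lay close together and the libraries labelled EphA2 null spread on both sides of them, with a log2 fold change of -0.08 ± 0.15 (95% interval -0.44 to 0.27, unadjusted p = 0.597, edgeR). Gabarapl1 was at 17.6, 18.2 and 14.3 CPM in libraries labelled EphA2 null, against 17.2, 17.9 and 18.0 CPM in wild type. Gabarapl2 was at 17.3, 15.7 and 13.3 CPM in libraries labelled EphA2 null, against 17.6, 17.0 and 13.2 CPM in wild type, and both genes overlapped between the genotypes. Gabarapl2 shares 12.2% of its 50-base stretches with other genes, pseudogenes among them, and Gabarapl1 23.1%, with a transcript on the opposite strand. Between the ranges Gabarap was the 1 called gene of the 5 in the family, against 44.6% of all tested genes. It was at 232, 203 and 205 CPM in the higher and 254, 243 and 251 CPM in the lower range, and fell by 0.27 ± 0.09 (log2, SE, adjusted p = 0.0413, edgeR). The call was lost in 5 of the 6 fits that left out 1 library, with an adjusted p of up to 0.218, and with DESeq2's size factors (adjusted p = 0.0551). Gabarapl2 had -0.35 ± 0.12 (adjusted p = 0.0508, edgeR), and the other 3 lay between -0.21 ± 0.11 for Map1lc3b and -0.07 ± 0.13 for Gabarapl1.

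Cargo receptors bind ubiquitin or a cargo protein with one end and Atg8 proteins with the other. Optn, a receptor for ubiquitinated mitochondria and bacteria, had the largest genotype difference of the 43 members in both models. Optn (ENSMUSG00000026672, chromosome 2, 5020642 to 5064051 in GRCm38) was at 38.1, 31.5 and 19.9 CPM in libraries labelled EphA2 null, against 19.2, 24.9 and 16.8 CPM in wild type. The highest values were those of the libraries labelled EphA2 null 1 and 2, and EphA2 null 3 lay among the wild type libraries. The libraries labelled EphA2 null were above wild type by 0.80 within the lower and 0.57 within the higher range on the log2 scale, each from 1 library against 2. The log2 fold change was 0.56 ± 0.27 for genotype alone (SE, unadjusted p = 0.0754, edgeR). With the range as a term it was 0.71 ± 0.19 (SE, 95% interval 0.28 to 1.14, unadjusted p = 0.00506), and it was not called (adjusted p = 0.951 in edgeR and 0.246 in DESeq2). Without a filter on low counts edgeR called Optn with this term at the same size, 0.71 (adjusted p = 0.00648), as 1 of 68 called genes, while the filtered fit called 1 gene. Left-out libraries gave 0.58 to 0.84, with adjusted p-values of at least 0.239 in edgeR. Between the ranges Optn had -0.51 ± 0.19 (adjusted p = 0.0561 in edgeR and 0.0482 in DESeq2).

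Sqstm1, whose protein is itself degraded by autophagy, was at 215, 366 and 233 CPM in libraries labelled EphA2 null, against 217, 223 and 280.3 CPM in wild type. The single high value of EphA2 null 2 stood apart, and the genotype difference of 0.18 ± 0.23 (unadjusted p = 0.465, edgeR) had a range of -0.10 to 0.32 when libraries were left out. Nbr1, a related receptor, was at 254, 227 and 204 CPM in libraries labelled EphA2 null, against 234, 242 and 234 CPM in wild type, a difference of -0.05 ± 0.13. Between the ranges Nbr1 had -0.16 ± 0.09 and Sqstm1 0.39 ± 0.16, and neither was called in edgeR. Sqstm1 was called in DESeq2 (adjusted p = 0.0367), and in edgeR once EphA2 null 3 was left out (0.52, adjusted p = 0.00872). Of the 50-base stretches of Sqstm1 15.5% also occur in Mrnip, on the opposite strand. Tax1bp1, a receptor of protein aggregates, was at 390.4, 331 and 358 CPM in the higher and 474, 419 and 439.9 CPM in the lower range and fell by 0.35 ± 0.10 (log2, SE, adjusted p = 0.0213, edgeR). Calcoco1, a receptor for endoplasmic reticulum and Golgi, was at 64.1, 58.4 and 58.0 CPM in the higher and 45.3, 47.6 and 48.9 CPM in the lower range and rose by 0.33 ± 0.10 (adjusted p = 0.0242, edgeR). The calls of both were lost when any one of EphA2 null 1, wild type 2 and wild type 3 was left out, and that of Calcoco1 also by library size alone (0.23, adjusted p = 0.0707).

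In the fusion step, 0 of 5 genes were called between the genotypes. Between the ranges 2 were called higher and 1 lower, against 22.9% and 21.6% of all tested genes. Stx17, the autophagosomal SNARE, was at 87.8, 75.0 and 81.4 CPM in libraries labelled EphA2 null, against 77.1, 75.4 and 76.6 CPM in wild type, a difference of 0.09 ± 0.12 (unadjusted p = 0.479, edgeR) with overlapping groups. Snap29, its partner, was at 85.3, 76.6 and 76.9 CPM in libraries labelled EphA2 null, against 82.0, 81.2 and 78.4 CPM in wild type, with a 95% interval of the log2 fold change from -0.30 to 0.27. Vamp8, the third SNARE of the bundle, was at 182, 149.5 and 163 CPM in the higher and 220.3, 203 and 215 CPM in the lower range. Its ranges did not overlap, and it fell by 0.41 ± 0.10 (log2, SE, adjusted p = 0.0128, edgeR), a call lost when any one of EphA2 null 1, wild type 2 and wild type 3 was left out.

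The tethering factors went the other way. Epg5, which ties autophagosomes to late endosomes, was at 39.7, 42.9 and 46.4 CPM in the higher and 28.6, 27.1 and 22.5 CPM in the lower range and rose by 0.69 ± 0.12 (log2, SE, adjusted p = 0.00434, edgeR). Without wild type 3 it was no longer called (0.51, adjusted p = 0.0514), and it held when the library labelled EphA2 null 1 was left out. Epg5 was at 28.6, 39.7 and 42.9 CPM in libraries labelled EphA2 null, against 27.1, 22.5 and 46.4 CPM in wild type, a genotype difference of 0.21 ± 0.29 (unadjusted p = 0.490, edgeR) with overlapping groups and with 0.21 within the lower and -0.17 within the higher range. Tecpr1 was at 15.8, 19.3 and 16.9 CPM in the higher and 8.80, 13.9 and 12.9 CPM in the lower range and rose by 0.64 ± 0.18 (adjusted p = 0.0201, edgeR). The value was 0.30 once EphA2 null 1 was left out (adjusted p = 0.320) and 0.98 without wild type 3, and the call was also lost without wild type 2 (adjusted p = 0.0545). Its range difference was 0.99 among libraries labelled EphA2 null, against 0.34 among wild type libraries, on the log2 scale. An interaction of genotype and range, a model added after these values were seen, called 0 of 43 members and 0 of 13601 genes in edgeR. Pik3c3 and Tecpr1 had unadjusted p-values under 0.05 there.

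The members that rose between the ranges had longer and more GC-rich transcripts than those that fell. The median longest transcript was 5187 bases for the 14 higher members, 2352 bases for the 9 lower and 3352 bases for the 20 not called. Their median GC content was 54.5%, 44.6% and 48.7%. Over the 43 members, Spearman's rho between the range difference and transcript length was 0.575, and with GC content 0.585, given as descriptions across genes. All tested genes showed the same direction, with 0.264 for length and 0.475 for GC content over 13141 genes. All tested genes were put in 4 bins of equal size by GC content. In the most GC-rich bin the median range difference was 0.38, and the 10 members there had a median of 0.59. In the least GC-rich bin all genes had a median of -0.33 and the 9 members -0.35. The promoter windows had a median GC of 61% for the higher members, 50% for the lower and 55.8% for those not called, against 52.4% over all windows. The part of GC content and length in the range differences was not tested.

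**Figure D5:**
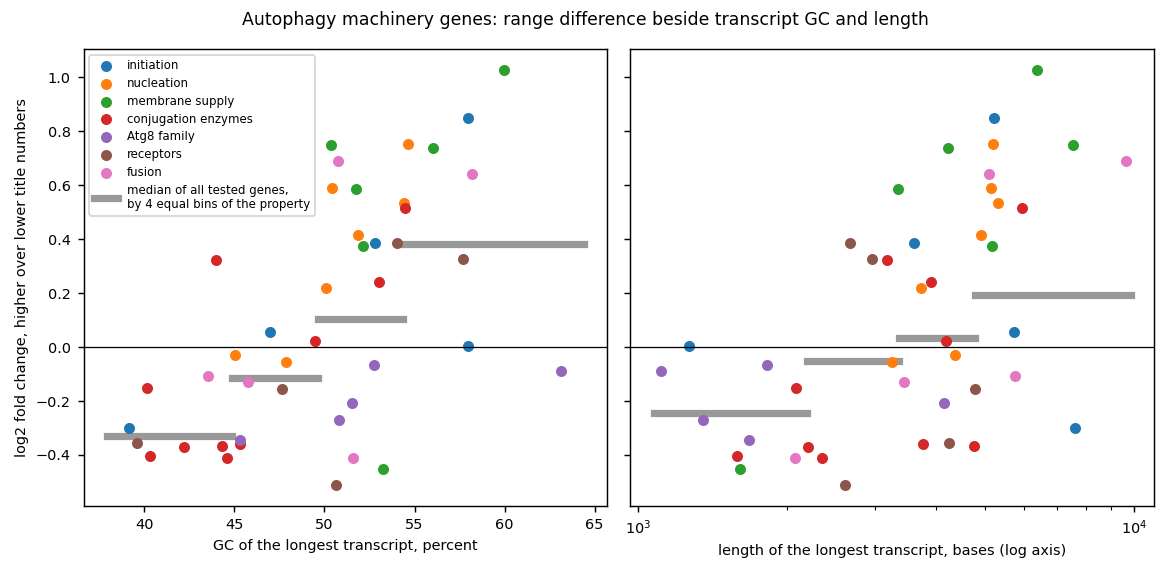
Range difference of each member (log2, higher over lower title numbers) against the GC content, left, and the length, right, of its longest transcript, coloured by step. Grey bars give the median of all tested genes in each of 4 equal bins of the property, from -0.33 to 0.38 for GC content and from -0.24 to 0.19 for length.

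A further 73 genes around the machinery, from nutrient sensing to late fusion, were read beside the members, and 72 of them were tested. Between the genotypes 0 were called, against 0.00778% of all tested genes, with a median log2 fold change of 0.03. An unadjusted p under 0.05 in edgeR belonged to 1 of the 72, against 1.18% of all tested genes. That gene was Ncoa4, the receptor that brings ferritin to autophagosomes. Ncoa4 was at 58.7, 38.9 and 45.7 CPM in libraries labelled EphA2 null, against 70.2, 69.0 and 71.7 CPM in wild type. Every library labelled EphA2 null lay below every wild type library, and the log2 difference was -0.56 ± 0.17 (SE, unadjusted p = 0.0138, adjusted p = 0.9996, edgeR). With the range as a term it was -0.50 ± 0.13 and not called (adjusted p = 0.951), while edgeR without the filter on low counts called it (adjusted p = 0.0338). Ccpg1 and Tex264, receptors for endoplasmic reticulum, were the other 2 of these genes whose groups did not overlap, against 3.73% of all tested genes. Their log2 fold changes were 0.13 ± 0.14 for Ccpg1 and -0.14 ± 0.13 for Tex264, neither of them called.

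Between the ranges 36 of the 72 were called, 19 higher and 17 lower, against 44.6% of all tested genes, 22.9% higher and 21.6% lower. The same shares stand beside each list below. Named here, apart from Tfeb, are the 2 genes with the smallest edgeR p in each list, and of these only Vps41 fell. The names therefore do not show the balance of directions. The lowest log2 differences were -1.06 among the organelle receptors and -0.86 among the mTORC1 and nutrient-sensing genes. Upstream of the Ulk complex, 8 of 21 mTORC1 and nutrient-sensing genes rose and 6 fell. Sesn2, a leucine sensor, was at 18.7, 18.2 and 15.6 CPM in the higher and 6.65, 9.30 and 7.34 CPM in the lower range, a rise of 1.16 ± 0.17, and Tsc2, a brake on mTORC1, rose by 0.82 ± 0.13. The AMPK complex had 2 rises, Stk11 at 0.63 ± 0.13 and Prkab1 at 0.54 ± 0.12, and 1 fall among 7 genes. Among 6 transcription factors of autophagy genes 3 rose and 1 fell. Foxo3 was at 130.4, 157 and 149.8 CPM in the higher and 68.0, 84.8 and 69.7 CPM in the lower range and rose by 0.99 ± 0.12, and Tfe3 rose by 0.84 ± 0.12. Tfeb, its relative, had 0.46 ± 0.21 and was not called (adjusted p = 0.109, edgeR). Of 12 other core genes 2 rose and 1 fell, with Wdfy3, a scaffold for aggregate clearance, at 0.93 ± 0.10 and the Becn1 inhibitor Bcl2 at 0.48 ± 0.09. Of 14 organelle receptors 2 rose, Tollip by 0.76 ± 0.11 and Bcl2l13 by 0.56 ± 0.09, and 4 fell. Of 12 late fusion genes 2 rose and 4 fell, with Plekhm1, an adaptor of Rab7, at 0.72 ± 0.10 and the HOPS subunit Vps41 at -0.49 ± 0.09. With the library labelled EphA2 null 1 left out, the rises of Tsc2, Stk11, Prkab1, Bcl2 and Bcl2l13 and the fall of Vps41 were not called in edgeR.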

How the data were processed

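Total RNA of corneal epithelial sheets from 6 samples was analysed, 3 labelled EphA2 null and 3 wild type. The authors deposited 1 table of raw counts per gene, and these counts are whole numbers with different totals per sample. The sources used here name no aligner, counting program, strand setting, genome build or annotation, so overlapping genes on opposite strands cannot be told apart. Columns were matched to samples by name. No 2 samples agreed within sampling noise, the lowest chi-square per degree of freedom being 10.6.

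Identifiers were named from GENCODE M21 (GRCm38), which held 24991 of the 25006. Tests used edgeR 4.0.16 in R 4.3.3, with TMM factors, filterByExpr, quasi-likelihood F tests and Benjamini-Hochberg adjustment over all tested genes. SE is the log2 fold change divided by the square root of F. The 3 comparisons were genotype alone, genotype adjusted for the title number range, and the range adjusted for genotype. DESeq2 1.42.0 and limma voom 3.58.1 were alternatives, beside other scalings, filters and thresholds and samples left out or summed. The tests were checked on simulated counts with the same dispersion for all genes. The simulated genotype comparison held no range difference, so the check does not cover the range differences within each genotype seen here. Differences within a range are of mean log2 CPM with a prior count of 0.5. CPM per kb used all annotated exons. Transcript length and GC are those of the longest annotated transcript, and promoter windows are those of RefSeq in GRCm38.p6. Members, steps and lists were chosen with earlier results of these data known. Full statistics were given for the 2 members with the smallest genotype p in each step, and between the ranges for the called member with the largest rise and fall in each step. Other members are named to account for all 43.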

Additional observations from a re-analysis of the deposited data

How the results depend on the processing

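Between the genotypes 0 members were called under every alternative run, namely 2 other scalings, DESeq2, limma voom, 2 other filters, an adjusted p of 0.10, each sample left out and samples with a shared title number summed. The median of the members was 0.03, -0.010 by library size alone, -0.0066 with the shared numbers summed, and from -0.0029 to 0.13 when single samples were left out. Summing also turned the sign of Atg13 (-0.025), Atg2b (-0.11), Epg5 (-0.032) and Rubcn (-0.018). Single samples moved Atg14 between -0.025 and 0.21, Atg2b between -0.029 and 0.43, Map1lc3b between -0.19 and 0.036 and Sqstm1 between -0.098 and 0.32. With the range as a term, 1 member (Optn) was called without a filter on low counts. Between the ranges 23 members were called, and from 4 to 25 when single samples were left out. The cause was not tested. No paired analysis was possible because the labels give no replicate numbers shared by the genotypes. No member had fewer than 84 counts in any library.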
